A study of Mus musculus with 6 samples.

Results

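DNA replication genes were examined in 5C.C7 T cells that lacked or carried CTLA-4, an inhibitory receptor of activated T cells. The set holds 35 genes, chosen by name for their place in DNA replication and with earlier results of these data known. For each, the brightest probe set on average was taken among those that the array annotation pairs with that gene alone. Of the 35 genes, 34 had such a probe set, out of 18193 genes with one in all, and the annotation used here pairs none with Chaf1a. All 34 passed the filter on dim probe sets. The donor T cells carried the transgenic 5C.C7 receptor, the CD45.1 allele and a RAG2-/- background in both groups, and the wild type and CTLA-4 KO (knockout) donors differed in that the latter were also CTLA-4-/-. Cells were placed in B10.A recipients, which were immunized with the MCC peptide plus LPS, and T cells were sorted after 4 days; each genotype had 3 arrays. As the donors lacked CTLA-4, so did their cells before the transfer, and the labels give neither the sort gate nor whether animals were pooled.

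Before a cell copies its DNA, CDC6 and CDT1 load the ring of MCM2 to MCM7 onto replication origins, a step called licensing. Cyclin E with its kinase and further factors then turn the ring into a working helicase by adding CDC45 and the GINS complex, after which DNA polymerases, the sliding clamp PCNA and the enzymes that join the lagging strand copy the genome. Deoxynucleotides come from ribonucleotide reductase, thymidylate synthase and thymidine kinase. Many of these genes are known targets of E2F transcription factors, which are released as cells enter S phase, and T cells divide rapidly in the first days after they meet antigen.

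The promoters of the genes on which the results turn are shown here because E2F sites are a textbook feature of replication genes. RefSeq windows of 300 bases (250 before and 50 after a start, GRCm38.p6, read along the gene) were found for 29 of the 35 genes. The letters TTCCCGC or TTGGCGC, searched on both strands as a simple form of the E2F site, occurred in 18 of 34 windows (52.9%), against 2236 of 32851 windows of all genes (6.81%). The windows of the replication genes had a median GC content of 59.8% and those of all genes 52.7%. Among windows with a GC content of 50% or more, the letters occurred in 15 of 29 (51.7%) and in 10.3% of all. Of 28 matches, 2 shared bases with a CCAAT or CHR match (TTTGAA or TTCGAA) and 2 overlapped each other. A match is a description of letters and not a binding site. The capitals mark the matches in the windows of 4 of the 5 genes that rose, of Rrm2, whose window holds neither form, and of Mcm6, the only gene with a negative difference.

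Mcm5, chr8:75109259-75109558, plus strand: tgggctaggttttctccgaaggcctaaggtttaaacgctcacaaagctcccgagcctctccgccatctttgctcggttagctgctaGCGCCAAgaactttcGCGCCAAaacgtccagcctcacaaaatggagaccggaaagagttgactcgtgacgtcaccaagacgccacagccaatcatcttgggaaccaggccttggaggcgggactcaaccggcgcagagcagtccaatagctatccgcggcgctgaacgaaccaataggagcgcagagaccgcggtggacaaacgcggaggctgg
Prim1, chr10:128014965-128015264, plus strand: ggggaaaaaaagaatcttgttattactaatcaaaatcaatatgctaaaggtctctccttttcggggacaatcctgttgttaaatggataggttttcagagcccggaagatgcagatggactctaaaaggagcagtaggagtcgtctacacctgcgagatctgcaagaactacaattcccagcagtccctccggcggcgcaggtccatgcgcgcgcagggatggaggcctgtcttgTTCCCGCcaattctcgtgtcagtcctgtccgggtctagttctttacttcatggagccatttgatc
Lig1, chr7:13279015-13279314, plus strand: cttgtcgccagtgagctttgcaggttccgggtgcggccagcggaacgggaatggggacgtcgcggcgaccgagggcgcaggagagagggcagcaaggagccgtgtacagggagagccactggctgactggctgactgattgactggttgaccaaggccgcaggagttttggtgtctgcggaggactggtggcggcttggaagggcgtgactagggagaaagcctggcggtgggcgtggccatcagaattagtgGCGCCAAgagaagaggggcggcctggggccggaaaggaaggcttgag
Uhrf1, chr17:56303087-56303386, plus strand: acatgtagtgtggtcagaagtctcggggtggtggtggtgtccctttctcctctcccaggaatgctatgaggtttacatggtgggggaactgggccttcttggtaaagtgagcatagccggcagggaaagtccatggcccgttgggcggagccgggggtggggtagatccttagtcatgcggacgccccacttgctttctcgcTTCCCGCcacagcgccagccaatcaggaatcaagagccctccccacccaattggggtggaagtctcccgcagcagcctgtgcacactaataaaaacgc
Rrm2, chr12:24708004-24708303, plus strand: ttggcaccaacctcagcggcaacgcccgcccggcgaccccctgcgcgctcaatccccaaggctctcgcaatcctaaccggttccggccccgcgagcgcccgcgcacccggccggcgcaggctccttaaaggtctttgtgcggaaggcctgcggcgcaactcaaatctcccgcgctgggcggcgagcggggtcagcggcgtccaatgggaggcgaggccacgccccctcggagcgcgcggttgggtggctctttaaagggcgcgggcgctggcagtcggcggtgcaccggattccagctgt
Mcm6, chr1:128359656-128359955, minus strand: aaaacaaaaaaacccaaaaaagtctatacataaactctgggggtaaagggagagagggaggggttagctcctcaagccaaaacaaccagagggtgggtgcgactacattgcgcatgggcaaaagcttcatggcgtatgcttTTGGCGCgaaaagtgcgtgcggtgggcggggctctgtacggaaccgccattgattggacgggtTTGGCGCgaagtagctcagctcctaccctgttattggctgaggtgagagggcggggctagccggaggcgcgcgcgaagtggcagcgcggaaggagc

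The Mcm5 and Mcm6 windows each hold 2 matches of the form TTGGCGC. Those of Prim1 and Uhrf1 hold 1 of the form TTCCCGC, and that of Lig1 holds 1 of the form TTGGCGC. In the Mcm5 and Lig1 windows the match lies on the other strand and so reads GCGCCAA. Lig1 has 3 listed starts and Uhrf1 has 2, and the other windows of these genes hold no match. Over all windows of the 5 genes that rose, 4 of 8 held a match (50%), against 52.9% of the windows of all replication genes. By gene it was 4 of 5, against 17 of 29 (58.6%). The 16 measured genes with a match had a median log2 difference (CTLA-4 KO minus wild type) of 0.50, and the 12 with a window but no match had a median of 0.34. The ranges were −0.22 to 1.06 and 0.16 to 1.19 and overlapped widely, and no test of this difference was made.

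The T cell label was borne out by bright T cell markers: 7 of 10 listed markers were measured, their summed intensity was 58850 to 66871 in wild type and 58431 to 59900 in knockout arrays, and none passed the test. With the replicate block 2 of the 7 were lower, without overlap: Cd3g at −0.35 (limma adjusted p = 0.029, and 0.122 without the block) and Cd28 at −0.34 (0.0299 and 0.0731). Summed B cell markers (9 measured) lay between 300.4 and 593 in wild type and between 198 and 437 in knockout, and myeloid markers (10 measured) between 516 and 582 and between 452 and 651, of which 4 and 6 were bright enough to test and none was called. Markers of CD8 T cells (2 measured), NK cells (4) and erythroid cells (4) summed to at most 513 on any array; only 2, 1 and 0 of them could be tested, with none called. Their part in the results was not tested. Ctla4 itself averaged 4902 ± 385 in wild type and 795 ± 14.4 in knockout (SD, n = 3 arrays), and no array overlapped (limma log2 difference −2.60, adjusted p = 1.45e-06), although the labels do not say which part of the gene was deleted, so this probe set may lie outside it. Replicate 2 of each genotype had high Xist and low Eif2s3y, as cells of female donors would, and the other arrays the reverse. All arrays were scaled to a trimmed mean intensity of 500.003, and the number of arrays limits the precision. In bulk RNA, a larger share of cells in S phase and more RNA per cell cannot be told apart.

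Most replication genes had higher values in CTLA-4 KO cells, and 5 passed the test. Of the 34 measured genes 33 had a positive log2 difference on the log2(intensity + 16) scale, against 50.2% of all 11989 tested genes, and the median was 0.49, against 0.0015 over all tested genes. Rrm2, Lig1, Uhrf1, Prim1 and Mcm5 rose and none fell (limma, adjusted p under 0.05 over all probe sets, which called 339 of 27022 probe sets, 1.25%, 212 of them higher, and 303, 247 of them higher, when arrays were centred on their median), that is 14.7% of the 34, where the background was 1.19% of genes higher and 0.5% lower. In a fit with the replicate block, where each knockout array is set against the wild type array of its number, 18 were higher and none lower (52.9%), where the background was 5.49% higher and 3.47% lower. In 17 of the 34 genes all knockout arrays lay above all wild type arrays, against 12.2% of genes, and in none did all lie below (10.6% of genes). At an unadjusted p under 0.05, 24 were higher and none lower, against 9.44% and 7.15% of all tested genes.

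Single calls in the fit without a block changed when 1 array was left out. Without wild type replicate 1, 2 or 3, the number of calls was 4, 1 or 0, and without knockout replicate 1, 2 or 3 it was 2, 0 or 5 (limma; where it was 0, 20 and 16 genes had an unadjusted p under 0.05). The calls were not always the same genes: without knockout replicate 3 they were Cdc6, Lig1, Mcm3, Rrm2 and Tk1, and without knockout replicate 1 they were Mcm4 and Rrm2. The median difference of the replication genes stayed between 0.40 and 0.62 in these fits. Over all probe sets, calls also fell below 339 in each of them. As each of these fits has fewer arrays, a lost call cannot be put down to the array left out. The ratio of 5' to 3' Actb signal, a sign of RNA integrity, was 0.418, 0.41 and 0.584 in wild type replicates 1 to 3 and 0.567, 0.691 and 0.544 in knockout replicates 1 to 3. With that ratio as a covariate no replication gene was called (limma, 15 at an unadjusted p under 0.05), and the median difference was 0.42. Without replicate 2 of both genotypes, the pair with high Xist, none was called either (limma, 14 at an unadjusted p under 0.05), and the median was 0.38.

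**Figure D1:**
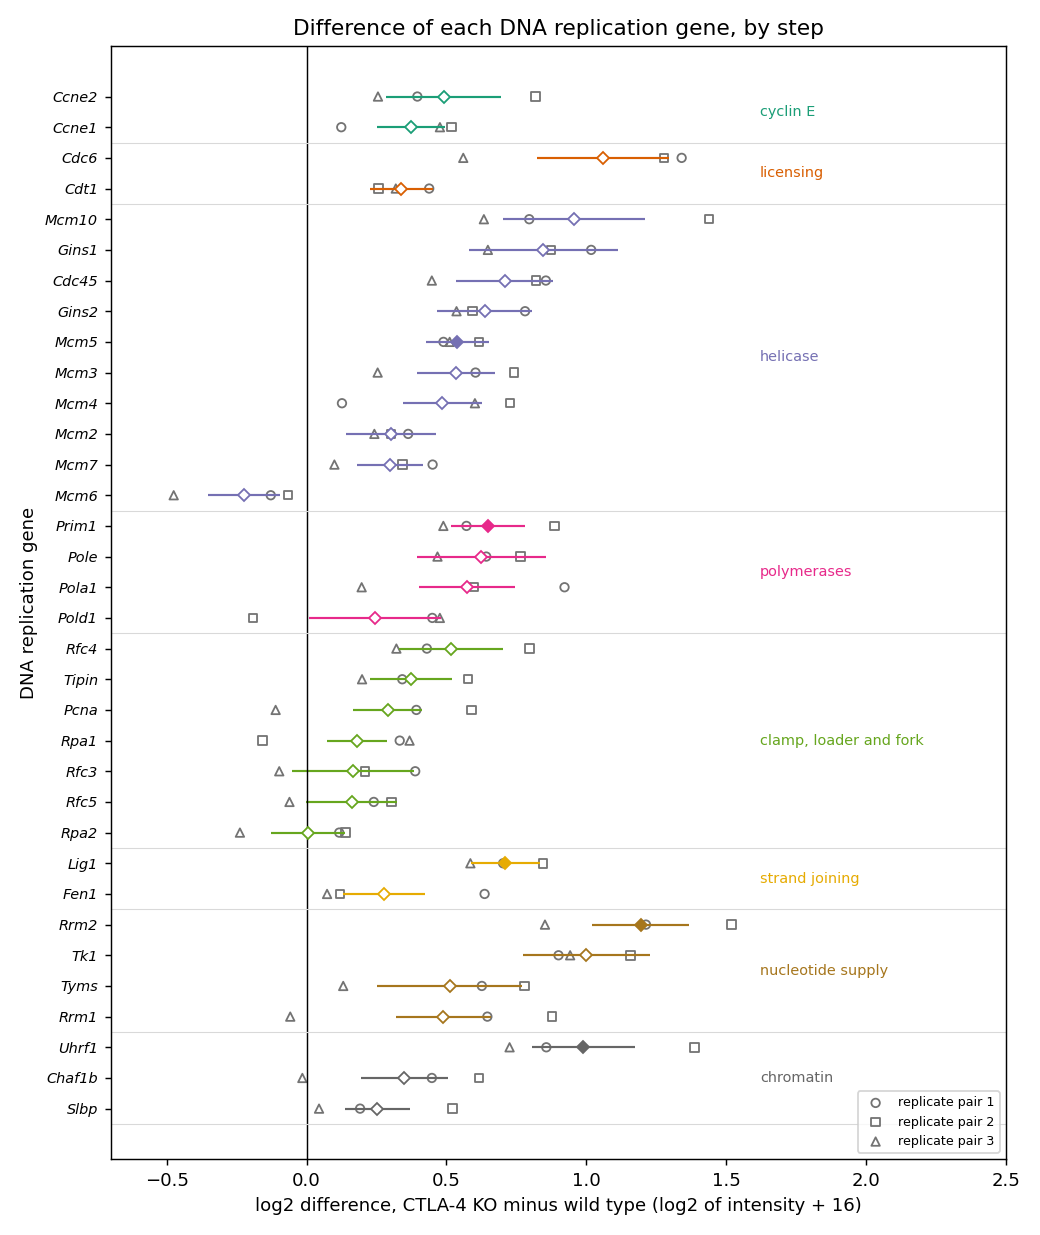
Log2 difference (CTLA-4 KO minus wild type, x axis) of the 34 measured replication genes (y axis), grouped by step. Diamonds with bars are the limma estimate ± SE over 3 arrays a group, filled where the adjusted p was under 0.05, and grey symbols are the 3 replicate pairs; all estimates but that of Mcm6 lie above 0, and Rrm2 lies farthest to the right.

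The cyclin E genes, which drive entry into S phase, did not pass either fit with the probe sets used. Ccne1 read 1161, 1106 and 1037 in wild type and 1267, 1590 and 1449 in knockout, with no overlap and a difference of 0.37 (adjusted p = 0.176, and 0.0505 with the block). Its other probe set read 376, 411 and 352 against 639, 617 and 488, and its difference of 0.59 passed with the block (adjusted p = 0.0143) and not without it (0.0997). Ccne2 had a difference of 0.49 (0.286) and overlapped. Of the licensing factors, Cdc6 had the larger difference. It read 308, 248 and 256 in wild type and 804, 625 and 386 in knockout. The groups did not overlap, and the knockout values spread more widely than those of wild type. The difference was 1.06 ± 0.24 (SE), which passed with the block (limma adjusted p = 0.00225) and not without it (0.0614). Cdt1, its partner in loading the MCM ring, read 2832, 3105 and 2569 against 3843, 3713 and 3208. These groups did not overlap either, and the difference was smaller, 0.34 ± 0.11 (adjusted p = 0.0321 with the block and 0.181 without). A second Cdt1 probe set read 732, 702 and 568 against 966, 890 and 698 and overlapped. Its difference was also 0.34 and passed neither fit (limma adjusted p = 0.0719 with the block and 0.342 without).

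Of the 10 helicase genes 1 passed without the block and 7 with it, where the background of genes higher was 1.19% and 5.49%. The 6 genes of the MCM ring had a median difference of 0.39, and their values ran from −0.22 to 0.54. Mcm5 read 3018, 2976 and 2596 in wild type and 4242, 4572 and 3707 in knockout, with all knockout arrays above wild type. It rose by 0.54 ± 0.11 (SE, limma adjusted p = 0.0494), and lost the call in each fit that left out 1 array (adjusted p between 0.0574 and 0.234). Mcm3 read 1431, 1298 and 1321 against 2183, 2181 and 1578, and Mcm4 read 4469, 4374 and 4659 against 4880, 7252 and 7078. Neither pair of groups overlapped by the probe sets used, although knockout replicate 1 of Mcm4 came close to wild type. The differences were 0.53 and 0.49 and passed with the block (limma adjusted p = 0.0106 and 0.0184) and not without it (0.101 and 0.129). The other probe set of Mcm4 read 2424, 2332 and 2116 against 3233, 3009 and 2340, where knockout replicate 3 lay among the wild type arrays. Its difference of 0.31 passed neither fit (limma adjusted p = 0.0603 with the block and 0.291 without).

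Mcm6 was the exception among the measured replication genes. It read 5842, 5058 and 5276 in wild type and 5345, 4830 and 3792 in knockout, and the groups overlapped. The difference was −0.22 ± 0.13 (SE, limma adjusted p = 0.444, and 0.188 with the block; 95% confidence interval −0.51 to 0.061), and it was negative in all 3 pairs and under every alternative tried. Its other bright probe set had a difference of −0.12 (adjusted p = 0.612). Mcm2 averaged 1958 ± 309 and 2431 ± 484 (SD, n = 3 arrays; difference 0.30, adjusted p = 0.402, and 0.0551 with the block). Mcm7 read 6088, 6157 and 5677 in wild type and 8324, 7810 and 6084 in knockout, where only knockout replicate 3 lay among the wild type arrays (difference 0.30, adjusted p = 0.26, and 0.0675 with the block).

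Mcm10, Cdc45, Gins1 and Gins2, whose products help to turn the ring into an active helicase, had differences between 0.64 and 0.96 by the probe sets used. Mcm10, a factor that helps to activate the helicase, read 241, 139 and 154 in wild type and 430, 405 and 248 in knockout. Cdc45 read 163, 169 and 172 against 307, 311 and 241. The groups were apart for both genes, with a narrow margin for Mcm10. Gins1 and Gins2, subunits of the GINS complex, read 177, 161 and 111 against 375, 307 and 182, and 291, 310 and 250.2 against 512, 476 and 370, again without overlap. Differences were 0.96 for Mcm10, 0.85 for Gins1, 0.71 for Cdc45 and 0.64 for Gins2, and all 4 passed with the block (limma adjusted p = 0.00744, 0.00977, 0.0214 and 0.0141) and not without it (0.102, 0.159, 0.0801 and 0.106). The intervals of these genes overlapped those of Mcm3, Mcm4 and Mcm5, and the difference between the parts of the helicase was not tested. The other subunits of GINS, Gins3 and Gins4, had negative differences of −0.12 and −0.11 (adjusted p = 0.802 and 0.708), and their arrays overlapped. The second probe set of Cdc45 had a difference of −0.27 (adjusted p = 0.544), against 0.71 for the one used.

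**Figure D2:**
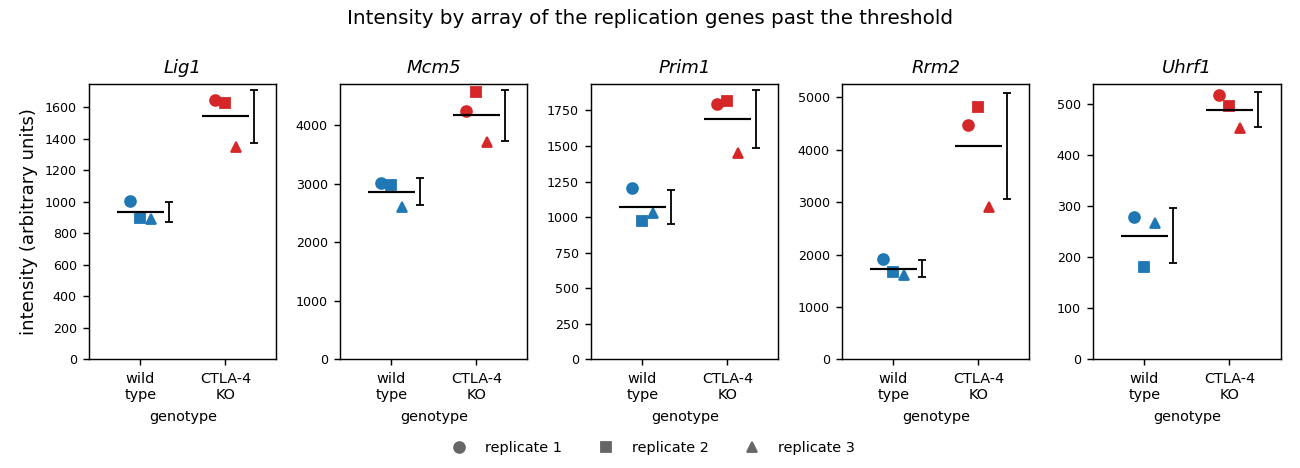
Intensity (y axis, arbitrary units, from 0) in each array of the 5 replication genes past the threshold, by genotype (x axis), with symbols for replicates 1 to 3, lines for the mean and bars for the SD of 3 arrays. No knockout array overlaps wild type in any panel, and knockout replicate 3 is the lowest of its group in each.

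Polymerase genes had a median difference of 0.60, and all 4 were positive. Prim1, the catalytic subunit of primase, which starts each new strand, read 1204, 974 and 1030 in wild type and 1796, 1813 and 1451 in knockout. There was no overlap, and the rise was 0.65 ± 0.13 (SE, limma adjusted p = 0.0482). It kept the call in 1 of the 6 fits that left out 1 array, and its other probe set had a similar difference of 0.67 (adjusted p = 0.0701, and 0.00317 with the block). Pola1, the catalytic subunit of the polymerase that works with primase, read 313, 414 and 483 against 607, 636 and 556, and Pole, that of the leading-strand polymerase, read 436, 276 and 285 against 689, 480.5 and 400.03. Pola1 groups were apart, while wild type replicate 1 of Pole lay within the knockout range. Their differences of 0.57 and 0.62 passed with the block (adjusted p = 0.0308 and 0.0131) and not without it (0.138 and 0.225). Pold1, of the lagging-strand polymerase, averaged 732 ± 235 and 852 ± 189 (SD, n = 3 arrays), and its difference of 0.24 was within the spread of the arrays (adjusted p = 0.667).

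Among the 34 genes, those of the clamp, its loader and the replication fork had the lowest median of the steps, 0.18 over 7 genes. This order did not hold in the second list below, where 8 other genes of this step had the highest median, 0.22. By the probe sets used, none of the 7 was without overlap. Of all tested genes, 12.2% lay wholly above wild type and 10.6% wholly below. Rpa1, part of the complex that coats single strands, read 13795, 17660 and 14291 in wild type and 17379, 15832 and 18449 in knockout. The arrays were interleaved, with a difference of 0.18 ± 0.11 (limma adjusted p = 0.458). Its other probe set did not overlap, at 5449, 6686 and 5348 against 7765, 7495 and 7580, and its difference of 0.39 passed with the block (adjusted p = 0.023) and not without it (0.1). Pcna, the sliding clamp, averaged 5963 ± 972 and 7255 ± 657, a difference of 0.29 (adjusted p = 0.29), which was 0.041 with the Actb ratio as a covariate and 0.14 without replicate 2 of both genotypes. Rpa2, which works in the same complex as Rpa1, averaged 1085 ± 5.58 and 1098 ± 161, a difference of 0.0056 with a 95% confidence interval of −0.29 to 0.30. Rfc3 and Rfc5, subunits of the clamp loader, had differences of 0.17 and 0.16 (adjusted p = 0.76 and 0.682). Rfc4, of the same loader, read 962, 662 and 684 against 1301, 1162 and 859, and Tipin, a protein of the fork that protects it when it stalls, read 1289, 1071 and 1052 against 1638, 1605 and 1209. In both, knockout replicate 3 lay below wild type replicate 1. Both passed with the block, at 0.52 and 0.37 (adjusted p = 0.018 and 0.0452), and not without it (0.219 and 0.252).

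Among the genes that join the lagging strand, Lig1 rose. This DNA ligase read 1006, 899.7 and 894 in wild type and 1647, 1628 and 1350 in knockout. The groups were well apart, and the difference was 0.71 ± 0.12 (SE, limma adjusted p = 0.0261). It was called without wild type replicate 1 and without knockout replicate 3, and not in the other 4 fits that left out 1 array (adjusted p between 0.0684 and 0.155). Fen1, the nuclease that trims the flap ahead of ligation, read 1769, 2414 and 1959 against 2758, 2624 and 2062, which overlapped (difference 0.28, adjusted p = 0.404).

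Nucleotide supply had the highest median difference of the steps with at least 4 genes, at 0.76, and all 4 of its genes were positive. Rrm2, the small subunit of ribonucleotide reductase, which makes deoxynucleotides, read 1922, 1671 and 1606 in wild type replicates 1 to 3 and 4477, 4816 and 2911 in knockout replicates 1 to 3. The groups did not overlap, with knockout replicate 3 the nearest to wild type. Rrm2 rose by 1.19 ± 0.17 (SE) on the log2 scale (limma adjusted p = 0.0127), which ranked 59 among the 11989 tested genes. It was called in 4 of the 6 fits that leave out 1 array, with adjusted p = 0.0679 without knockout replicate 2 and 0.0549 without wild type replicate 3. Its other 2 probe sets had differences of 0.98 and 1.26, which passed with the block (adjusted p = 0.000382 and 0.00165) and not without it (0.0567 and 0.0691).

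Tk1, the thymidine kinase of the salvage pathway, read 239, 215 and 151 in wild type and 460, 499.7 and 304 in knockout. Every knockout array was above every wild type array, and the knockout mean was 2.09-fold that of wild type, which passed with the block (limma adjusted p = 0.00178) and not without it (0.0658). Rrm1, the large subunit of ribonucleotide reductase, averaged 1098 ± 176 in wild type and 1555 ± 302 in knockout (SD, n = 3 arrays), with a difference of 0.49 (adjusted p = 0.2). Its knockout replicate 3 lay below wild type replicate 3, so the subunits of the same enzyme differed there. Tyms, which makes thymidylate, averaged 132 ± 32.7 and 198 ± 65.4, a difference of 0.51 (adjusted p = 0.378), and its arrays overlapped.

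Of the chromatin genes, Uhrf1 rose. It encodes a protein that brings the maintenance DNA methyltransferase to newly copied DNA, and it read 279, 180 and 267 in wild type and 518, 496 and 452 in knockout. All knockout arrays were above wild type, and the difference was 0.99 ± 0.18 (SE, limma adjusted p = 0.0344), called in 1 of the 6 fits that left out 1 array. Chaf1b, a subunit of the histone chaperone CAF-1, averaged 476 ± 46.5 and 613 ± 89.9 (SD, n = 3 arrays; difference 0.35, adjusted p = 0.31). Its other probe set was dim and had a difference of −0.60 (adjusted p = 0.302). Slbp, which binds the stem-loop of histone mRNAs, read 2117, 1765 and 2108 against 2419, 2540 and 2174. These groups did not overlap, but the margin was small and the difference of 0.25 did not pass (adjusted p = 0.328).

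**Figure D3:**
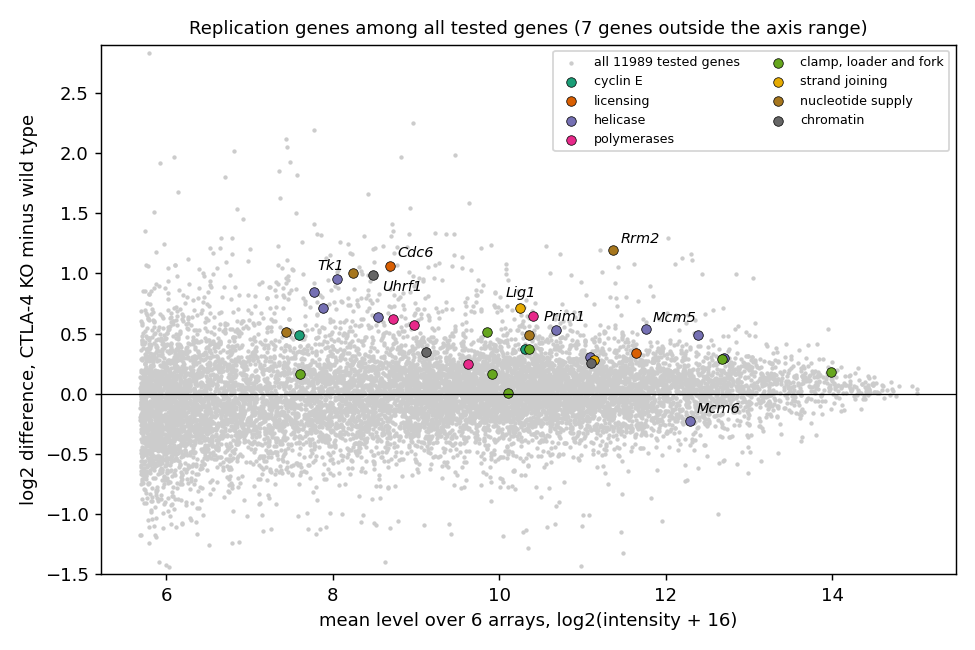
Log2 difference (y axis, CTLA-4 KO minus wild type) against the mean level over 6 arrays (x axis, log2 of intensity + 16) for all 11989 tested genes in grey and the 34 replication genes in the colour of their step, with 7 genes outside the range of the y axis. The replication genes lie over a wide range of levels and above 0 with the exception of Mcm6.

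The other genes of replication were followed in a second list of 53 genes, of which 52 were measured. They moved less: 1 of 52 rose (1.92%) and none fell, where the background was 1.19% and 0.5%. The median difference was 0.14, and 36 were positive (69.2%), against 50.2% of all tested genes. The one that rose was Prim2, the regulatory subunit of primase, which read 674, 578 and 625 in wild type and 1090, 1056 and 903 in knockout (difference 0.68 ± 0.13, limma adjusted p = 0.0369). Both subunits of primase thus rose without overlap, by 0.65 for Prim1 and 0.68 for Prim2. Next by p came Gmnn, the inhibitor of CDT1, at 0.56 (adjusted p = 0.0709), the nuclease gene Dna2 at 0.75 (0.0714), the histone chaperone gene Asf1b at 0.95 (0.0798), Dbf4, the activator of the CDC7 kinase, at 0.51 (0.105), and Dut, which removes dUTP, at 0.49 (0.118). All 5 passed with the block (limma adjusted p = 0.00823, 0.0078, 0.00103, 0.012 and 0.0139). In that fit 10 of the list were higher (19.2%) and 1 lower, where the background was 5.49% and 3.47%. In 4 of the 6 fits that left out 1 array no gene of this list was called (limma, 9 to 13 at an unadjusted p under 0.05).

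Within nucleotide supply this second list had a median difference of −0.20 over 7 genes. Of these 3 were positive (42.9%) and 4 negative, where 50.2% of all tested genes were positive. Of the positive ones Dut (above) and Dck, the deoxycytidine kinase of the salvage pathway, passed with the block, with no overlap; Dck had a difference of 0.31 (limma adjusted p = 0.0479, and 0.196 without the block). The gene lower with the block was Samhd1, an enzyme that breaks down deoxynucleotides. It read 7730, 8240 and 7490 in wild type and 6871, 5947 and 5506 in knockout, with no overlap and a difference of −0.36 ± 0.10 (limma adjusted p = 0.0286 with the block and 0.119 without). Rrm2b, the small subunit of ribonucleotide reductase that is made outside S phase, averaged 851 ± 183 and 723 ± 37.3 (difference −0.21, adjusted p = 0.57), against 1.19 for Rrm2. The kinase genes Dtymk and Tk2, the latter of mitochondria, had differences of −0.21 and −0.20 (limma adjusted p = 0.281 and 0.592). Dtymk was lower in knockout without overlap, as 10.6% of all tested genes were, while the Tk2 arrays overlapped.

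Genes of mitosis had larger differences than the replication genes in the same arrays. Of 29 measured mitosis genes 17 rose (58.6%), against 1.19% of all tested genes. All 29 were positive, against 50.2% of all tested genes, and the median was 1.04. Mki67, a marker of cycling cells, read 3332, 3322 and 2826 in wild type and 7854, 7868 and 5316 in knockout, a difference of 1.13 ± 0.15 (limma adjusted p = 0.00989). Only Rrm2 and Cdc6 among the replication genes had differences above the median of the mitosis genes. The difference between the lists was not tested, since both were chosen with results of these arrays known.

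The arrays of CTLA-4 KO were not alike. Knockout replicate 1 was the highest array for 20 of the 34 replication genes and replicate 2 for 12, whereas replicate 3 was so for 1 and the lowest for 3. Expressed as the median deviation from each gene's mean on the log2 scale, the replication genes stood at −0.16, −0.30 and −0.31 in wild type replicates 1 to 3 and at 0.42, 0.34 and −0.032 in knockout replicates 1 to 3. The lists of mitosis genes and of other replication genes had the same order of knockout arrays, with mitosis at 0.75, 0.70 and 0.11. By replicate pair, the median difference of the replication genes was 0.47, 0.62 and 0.32, and pair 3 gave the smallest difference for 27 of 34 genes (79.4%), against 32.4% of all tested genes. In pair 3 the Actb 5' to 3' ratio was lower in knockout (0.544) than in wild type (0.584), while in pairs 1 and 2 it was higher, and its part in the result was not tested apart from the covariate fit above. In 25 of the 34 genes the difference was positive in all 3 pairs, against 23.3% of all genes.

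**Figure D4:**
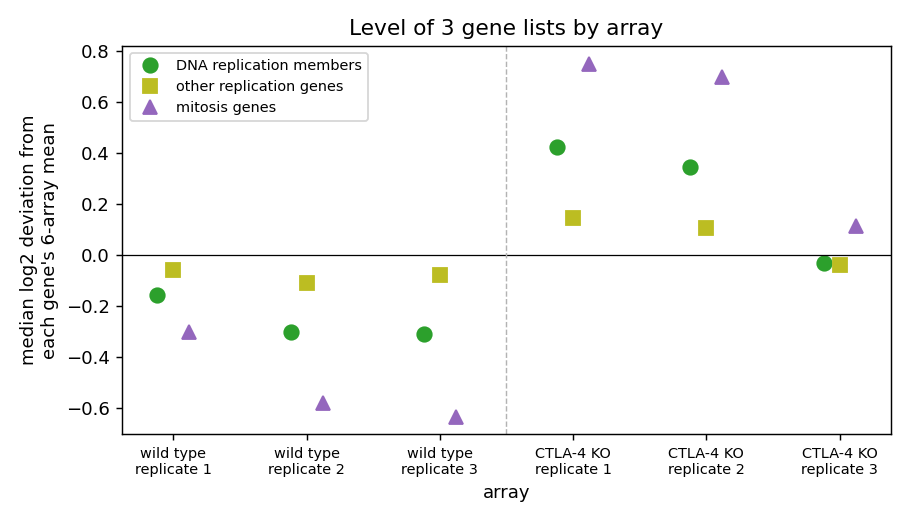
Median log2 deviation from each gene's mean over 6 arrays (y axis) in each array (x axis) for the 34 replication genes, 52 other replication genes and 29 mitosis genes. Knockout replicates 1 and 2 are the highest for all 3 lists, and knockout replicate 3 lies between them and wild type.

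Several probe sets read some of these genes, which gave a check within each array. Of the 34 genes 22 had more than 1 probe set past the filter, and in 18 of these all probe sets agreed in sign. The 4 with opposite signs were Cdc45, Chaf1b, Rfc3 and Rpa2. Of the 28 further probe sets tested, 23 had positive differences, against 50.2% of all tested genes. None passed without the block (limma), where 339 of all 27022 probe sets did (1.25%). With the block 12 passed, where 2341 of the 27022 did. For Mcm3, 3 of the 4 further probe sets had differences between 0.53 and 0.58, beside 0.53 for the one used, and the fourth had 0.24. For Mcm7 the further probe sets gave 0.37, 0.43 and 0.51, beside 0.30 for the one used.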

How the data were processed

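Total RNA (2 µg per array) was extracted with Trizol and made into biotinylated cRNA for Affymetrix arrays (per the labels). For each array the authors deposited 1 linear intensity per probe set for 45101 probe sets (6 arrays), and Partek and MAS5 are named, without versions, per the submitters' processing notes; any treatment of faint signals by the authors is not stated. Values were turned into log2(intensity + 16), 64 control probe sets were left out, and probe sets whose mean log2 value reached the 40th percentile (35.4 in intensity) were kept, which left 27022. Genotypes were compared with limma 3.58.1 (R 4.3.3; lmFit and eBayes, trend on intensity; 4 residual degrees of freedom; Benjamini-Hochberg adjustment over all kept probe sets, threshold 0.05), checked on simulated data. The 16 added before the log2 step understates log2 differences of dim genes.

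Groups came from the titles, which call the arrays biological replicates without naming animals, so p-values measure the spread between these arrays, which may be partly technical. Arrays of the same number deviated together from their groups (r = 0.371, 0.24 and 0.254), so the numbers in the titles were taken to pair the arrays, and a fit with the replicate number as a block (2 residual degrees of freedom) is given where it changes a call. Gene names came from the array annotation, updated through RefSeq gene IDs (34754 probe sets matched); promoter windows came from RefSeq (GRCm38.p6). The genes and lists were chosen with earlier results of these data known. The value in every array is given for genes past the threshold in either fit, genes with a negative difference and, in each step, the gene with the highest signal; of the second list the 6 with the smallest p are named. Gins3, Gins4, Dck, Samhd1, Rrm2b, Dtymk, Tk2, Cd3g and Cd28 were named after their values were seen.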

Additional observations from a re-analysis of the deposited data

How the results depend on the processing

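The median difference of the replication genes, 0.49, stayed between 0.38 and 0.62 under all 20 alternatives, and that of the other replication genes, 0.14, between 0.085 and 0.23. Counts of calls depended on the setting. For all probe sets (339), replication genes (5) and other replication genes (1), they were 111, 1 and 0 with no filter on dim probe sets, 20, 0 and 0 without the intensity trend, 2341, 18 and 11 with the replicate block, 21, 0 and 0 with the Actb ratio as a covariate, 46, 0 and 0 without replicate 2 of both genotypes, 45, 0 and 0 at a threshold of 0.01, and 832, 8 and 4 at 0.10. Where no replication gene was called by limma, 14 to 24 had an unadjusted p under 0.05, and of the other replication genes 6 to 15. Array weights gave 521 probe sets, a pseudocount of 1 and centring on the median gave 3 replication genes each, and plain _at probe sets gave 3 and 0. The Gapdh ratio as a covariate gave 396 probe sets, 4 replication genes and 1 other. Leaving out 1 array gave 62 to 217 probe sets, 0 to 5 replication genes and 0 to 3 others. Of the 339 probe sets 212 were higher, and of 303 under median centring 247. Rpa2 turned to −0.083 with the Actb covariate, −0.061 without replicate 2 and −0.079 as the mean of its probe sets, and ran from −0.064 (without knockout replicate 2; −0.051 without knockout replicate 1) to 0.13 when 1 array was left out. Leaving out 1 array, Rfc3 ran from −0.033 (without knockout replicate 1) to 0.31 and Pold1 from −0.023 (without wild type replicate 3) to 0.45. Chaf1b turned to −0.13 as a mean of probe sets. Without a change of sign, the Actb covariate lowered Pola1 to 0.34, Rrm1 to 0.24, Chaf1b to 0.19 and Slbp to 0.13. The cause of these changes was not tested. Dim probe sets, near background, limit what can be said of single low genes.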

Other observations

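The spread within a genotype differed for the replication genes. Their median SD on the log2 scale was 0.16 in wild type and 0.25 in knockout (n = 3 arrays each), and the SD was larger in knockout for 27 of 34 genes (79.4%), against 44.8% of all 11989 tested genes. With 3 arrays a group no test of the spread was made.

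A second probe set of Uhrf1, left out by the filter on dim signals, read 3.58, 6.52 and 4.72 in wild type and 99.99, 66.6 and 49.5 in knockout, without overlap. It was chosen after its values were seen, lies near background in wild type, and points the same way as the probe set used.

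Promoter letters differed between the lists. CHR letters (TTTGAA or TTCGAA) occurred in 22 of 28 windows of mitosis genes (78.6%), in 5 of 34 windows of replication genes (14.7%) and in 19.2% of all windows, and CCAAT in 89.3%, 58.8% and 37.4%. The E2F letters occurred in 7 of 28 windows of mitosis genes (25%), in 21 of 53 of the other replication genes (39.6%) and in 18 of 34 of the replication genes (52.9%). These are counts of letters, and their link to expression was not tested.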
